A study of Mus musculus with 32 samples.

Results

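A set of 533 barcodes with adipocyte transcripts was found among the 19564 barcodes kept from 4 single-cell libraries of mouse epididymal fat. A barcode belonged to the set when it held no UMI (unique molecular identifier, the count of 1 captured RNA molecule) of the pan-leukocyte gene Ptprc and at least 1 UMI each of at least 3 of 5 genes. The 5 genes were Adipoq, Plin1, Car3, Retn and Cidec, called the rule genes here, and the kept barcodes had at least 300 genes detected and at most 10% of their UMIs from mitochondrial genes. The set was thus selected on measured UMIs of Ptprc and of these 5 genes. Of the 533 barcodes, 410 (76.9%, 95% interval 73.1 to 80.4) also held at least 3 of the 5 vascular endothelial markers Pecam1, Cdh5, Flt1, Kdr and Egfl7. The set is therefore called adipocyte-transcript barcodes and not adipocytes.

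The libraries were made from C57BL/6 mice labelled WT or CD169-DTR and fed a normal or a high fat diet for 16 weeks. All 4 groups, controls included, received diphtheria toxin (DT) for 7 days. In the CD169-DTR strain the receptor for this toxin is driven by the gene of CD169 (Siglec1), so the toxin was meant to remove tissue resident macrophages, and the study asked how this altered the other cells of lean and obese fat. The stromal vascular fraction, the cells left after fat tissue is digested and the floating adipocytes are removed, was sorted into CD45+ and CD45- cells, which were mixed in equal parts after most F4/80-high and Ly6C-high cells had been left out. Each group is 1 library, given as 8 sequencing runs, and how many mice went into it is not stated in the labels. Differences between libraries therefore have no replicate check, no test was made, and all intervals are exact 95% intervals that cover counting error only.

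Mature adipocytes store triglyceride in a single large lipid droplet and secrete hormones such as adiponectin. They float during the preparation of the stromal vascular fraction and are fragile and large, so intact adipocytes are not a usual part of it. Capillary endothelial cells lie against adipocytes, import fatty acids through lipoprotein lipase held on Gpihbp1, and themselves use Pparg, Cd36 and Fabp4, which adipocytes use too. Among the rule genes, Adipoq encodes adiponectin and Retn encodes resistin, both secreted. Plin1 encodes perilipin 1, the coat protein of the droplet, and Cidec a protein that fuses droplets. Car3 encodes carbonic anhydrase 3, an abundant enzyme of the adipocyte cytosol.

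In the GRCm38 annotation Adipoq lies on chromosome 16 from 23146536 to 23158028 (plus strand), Plin1 on chromosome 7 from 79720218 to 79732903 (minus), and Car3 on chromosome 3 from 14863512 to 14872523 (plus). Retn lies on chromosome 8 from 3655770 to 3660110 (plus) and Cidec on chromosome 6 from 113424634 to 113435760 (minus). Since the 5 genes were counted together in the same barcodes, the promoters in RefSeq's table (250 bases before to 50 after the start, GRCm38.p6) were searched on both strands for 3 motifs. They were the C/EBP-type TTGCNNAA, the nuclear receptor core AGGTCA and the PPAR-type direct repeat (2 copies of AGGNCA with 1 base between them), which contains the core when an N is T. The promoters below are the only ones of the rule genes with a match. Plin1 (chr7:79732727-79733026, minus strand) held 2 matches to the C/EBP-type motif and 1 of the 2 Cidec entries (chr6:113434715-113435014, minus strand) held 1, shown in capitals.
Plin1: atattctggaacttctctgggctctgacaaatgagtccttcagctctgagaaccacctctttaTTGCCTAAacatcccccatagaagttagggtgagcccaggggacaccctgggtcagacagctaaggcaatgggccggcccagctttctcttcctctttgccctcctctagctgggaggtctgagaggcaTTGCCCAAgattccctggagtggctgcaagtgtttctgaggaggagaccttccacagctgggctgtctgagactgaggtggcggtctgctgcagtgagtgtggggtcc
Cidec: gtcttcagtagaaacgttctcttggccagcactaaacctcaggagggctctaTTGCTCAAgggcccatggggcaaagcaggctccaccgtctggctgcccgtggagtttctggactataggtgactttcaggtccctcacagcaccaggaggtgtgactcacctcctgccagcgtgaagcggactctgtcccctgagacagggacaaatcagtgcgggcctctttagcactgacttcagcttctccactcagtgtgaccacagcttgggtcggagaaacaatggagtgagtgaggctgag
The other Cidec entry, Adipoq and Retn held none of the 3 motifs, and Car3 has no entry in the table. Of all 32851 promoters in the table, 10.8% held the C/EBP-type motif, 16.3% the core and 0.381% the direct repeat. A match is a run of letters in the window and not a measured binding site.

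The kept barcodes numbered 5048 in the library labelled normal diet WT, 3624 in normal diet DTR, 5187 in high fat WT and 5705 in high fat DTR. Median depth in them ran from 6218 to 9202 UMIs and the deposited totals from 33390225 to 64766718 UMIs per library. Siglec1, the gene that drives the receptor, stood at 5 UMIs (0.136 CPM, UMIs of the gene scaled to a total of 1e6) in normal diet WT and 113 UMIs (3.45 CPM) in normal diet DTR. In the high fat libraries it stood at 51 UMIs (1.09 CPM) for WT and 195 UMIs (3.05 CPM) for DTR. The level was thus higher in both libraries labelled DTR, against the direction the labels give for a depleted cell, although the sort had already left out most F4/80-high macrophages. The genotype names below are those of the labels throughout. Scrublet, a doublet caller, marked 0.690% to 1.37% of kept barcodes per library and 2 of the 533, beside an expected rate of 5.4%. It builds its model doublets from the kept barcodes, so pairs with an adipocyte could go unmarked. Doublets were kept. Of the deposited barcodes, 658 had a sequence that occurred in more than 1 library, and 8 of the 533 were among them.

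Adipocyte-transcript barcodes were most frequent in the normal diet libraries. They numbered 378 of 2581 barcodes without Ptprc in the library labelled normal diet WT (14.6%, 13.3 to 16.1) and 124 of 1777 in normal diet DTR (6.98%, 5.84 to 8.26). In high fat WT they were 22 of 2589 (0.850%, 0.533 to 1.28) and in high fat DTR 9 of 3326 (0.271%, 0.124 to 0.513). None of the 4 intervals overlapped its neighbour. The order of the libraries stayed when every barcode was thinned to 2000 UMIs, which gave 8.21%, 4.45%, 0.218% and 0.101%. The high fat shares then rested on 5 and 3 barcodes, and their intervals overlapped (0.0707 to 0.507 and 0.0209 to 0.296). The mix of cell types behind these shares differed: barcodes with endothelial markers made up 35.2%, 23.5%, 19.1% and 0.571% of those without Ptprc, so the last library offered 19 endothelial barcodes in all.

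Within endothelial barcodes the shares were highest in normal diet WT, lower in normal diet DTR and lower still in high fat WT. In the library labelled normal diet WT 300 of 908 (33.0%, 30.0 to 36.2) carried at least 3 rule genes, and 84.1% carried at least 1. In normal diet DTR the shares were 22.5% (94 of 418, 18.6 to 26.8) and 63.6%. In high fat WT they were 3.24% (16 of 494, 1.86 to 5.21) and 32.8%. In high fat DTR 0 of 19 carried any rule gene, with an upper limit of 17.6%. That limit takes in the 3.24% of high fat WT with at least 3 rule genes. It lies below the 32.8% of high fat WT with at least 1. Median depth in endothelial barcodes was similar between these libraries, at 3658, 3331, 3892.5 and 3262 UMIs. Thinned to 2000 UMIs, with 95, 58, 59 and 5 shallower barcodes left out, the shares with at least 3 rule genes were 20.3% (17.6 to 23.2), 17.2% (13.5 to 21.5), 0.690% (0.142 to 2.00) and 0 (0 of 14). After thinning the intervals of the normal diet libraries overlapped, while that of high fat WT lay below both.

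**Figure D1:**
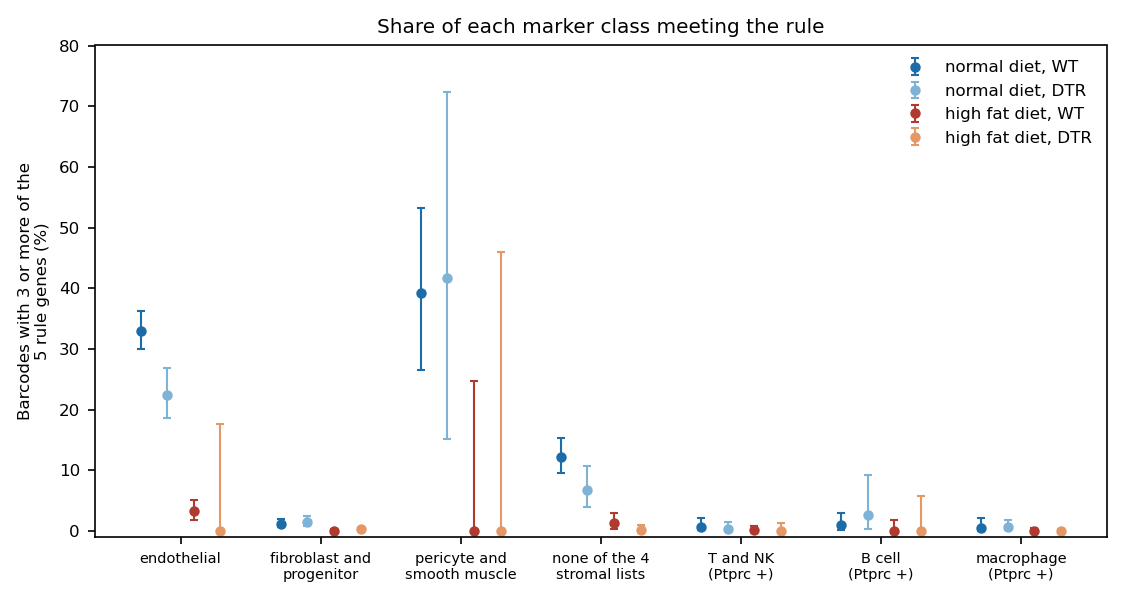
Share of barcodes with at least 3 rule genes (percent, linear axis) in 7 marker classes of the 4 libraries, with exact 95% binomial intervals. Endothelial and pericyte barcodes of the normal diet libraries stand highest (33.0% and 39.3% in normal diet WT), and T and NK, B and macrophage barcodes lie at or below 2.63%. The shares are not thinned, and pericyte barcodes were deeper (medians of 7363.5 and 3658 UMIs for pericyte and endothelial barcodes of normal diet WT).

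Other cell types carried the transcripts to different degrees. Pericyte barcodes, the contractile cells wrapped around capillaries, met the rule in 22 of 56 (39.3%, 26.5 to 53.2) in normal diet WT and in 5 of 12 (41.7%, 15.2 to 72.3) in normal diet DTR, against 0 of 13 and 0 of 6 in the high fat libraries, with upper limits of 24.7% and 45.9%. Of the 27 pericyte barcodes that met it, 24 also held endothelial markers. Pericyte barcodes were deeper than endothelial ones, with medians of 7363.5 and 7518 UMIs in normal diet WT and DTR beside 3658 and 3331. Thinned to 2000 UMIs they met the rule in 17.9% (8.91 to 30.4) and 8.33% (0.211 to 38.5). The thinned endothelial shares were 20.3% and 17.2%. Fibroblast barcodes met it in 1.21%, 1.58%, 0.0585% and 0.295% of cases in the order normal diet WT, normal diet DTR, high fat WT and high fat DTR. Barcodes with none of the stromal marker lists did so in 12.2% (9.55 to 15.4), 6.80%, 1.32% and 0.176%. T and NK barcodes, a cell type that should lack these genes, met it in 0.735% (3 of 408), 0.279%, 0.156% and 0. Their median depths, 4558.5, 3927, 3643 and 2795 UMIs, were near those of the endothelial barcodes. The share with at least 1 rule gene was 5.88%, 3.07%, 1.56% and 0.372% in T and NK barcodes. The 5 rule genes together reached 35.3, 10.3, 5.30 and 0.782 CPM in T and NK barcodes and 2169 (2124 to 2215), 1568 (1508 to 1630), 172 (156 to 190) and 0 CPM in all endothelial barcodes. The endothelial level thus stood above the T and NK level in the same 3 libraries, by more than the counting intervals.

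The cut at 3 genes fell inside a continuous range and not in a gap. Among endothelial barcodes of the library labelled normal diet WT, 144, 228, 236, 157, 103 and 40 held 0, 1, 2, 3, 4 and 5 rule genes. Those of normal diet DTR were 152, 112, 60, 47, 33 and 14, and in high fat WT 332, 104, 42, 12, 4 and 0. The most frequent number of rule genes was thus 2 in normal diet WT and 0 in the other libraries. Just outside and just inside the cut, the normal diet WT barcodes with 2 and with 3 rule genes had median depths of 3588.5 and 3874 UMIs.

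**Figure D2:**
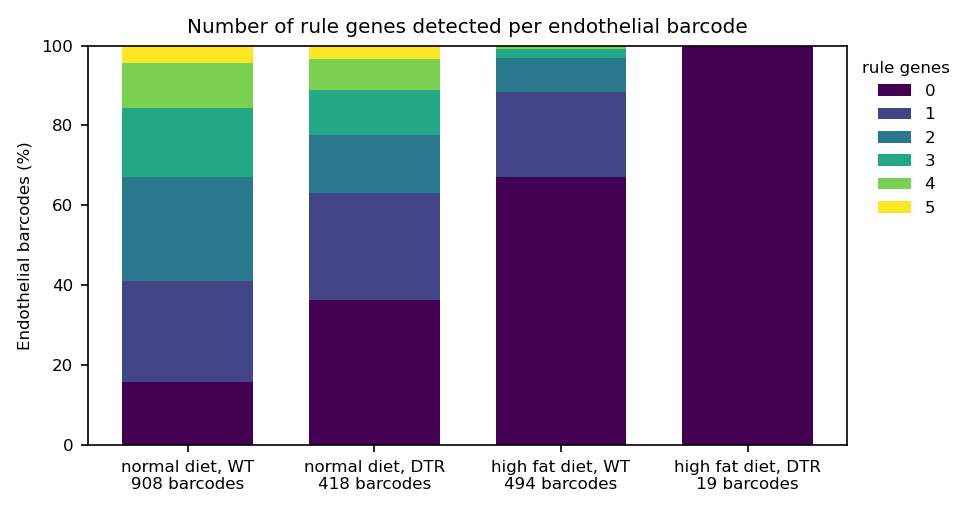
Share of endothelial barcodes (percent, stacked to 100) by the number of rule genes detected, in the 4 libraries with 908, 418, 494 and 19 endothelial barcodes. The part with 0 rule genes is smallest in normal diet WT (144 of 908) and takes in all 19 barcodes of high fat DTR.

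Cfd, which encodes adipsin, a secreted protease and one of the most abundant adipocyte messages, followed the number of rule genes although it took no part in the rule. In endothelial barcodes of normal diet WT with 0 to 5 rule genes Cfd stood at 132, 389, 759, 1525, 3115 and 5510 CPM. In normal diet DTR it went from 60.4 through 177, 594, 1352 and 4449 to 7900 CPM, so both normal diet libraries showed the same order at every step. Fasn, the fatty acid synthase gene, went from 17.2 to 565 CPM in normal diet WT. Gpihbp1, the capillary anchor of lipoprotein lipase, had no such slope, with 2739, 2666, 3538, 3253, 3541 and 2865 CPM in normal diet WT. Depth moved with the number of rule genes as well, with medians of 3226, 3588.5 and 3874 UMIs at 0, 2 and 3 rule genes in normal diet WT, and its part in the order was not tested beyond the thinned shares above.

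Car3 carried most of the rule-gene UMIs of the members in 3 libraries (71.4% to 79.3%) and 43.7% in high fat WT, and 531 of the 533 barcodes held it. Its level over all members was 4111 CPM (7614 UMIs) in normal diet WT, 4812 CPM (3515) in normal diet DTR, 916 CPM (131) in high fat WT and 5761 CPM (914) in high fat DTR. The low library was high fat WT, with 22 members. Retn stood at 681, 757, 238 and 328 CPM in the same order, lower in both high fat libraries. Cidec stood at 407, 404, 490 and 69.3 CPM, level in 3 libraries and low in high fat DTR, where only 22.2% of members held it. Adipoq stood at 256, 437, 280 and 441 CPM, higher in both libraries labelled DTR. Plin1 stood at 130, 334, 175 and 668 CPM and was detected in 28.6%, 32.3%, 31.8% and 88.9% of members, so the perilipin message was least often found of the 5 in both normal diet libraries. These levels are sums over members of different kinds. Members with fibroblast but no endothelial markers made up 2.91%, 10.5%, 4.55% and 88.9% in the same order. The normal diet libraries are compared in endothelial members alone below, and for the high fat libraries the part of this mix was not tested. The most frequent combinations were Car3, Retn and Cidec (139 barcodes), the same with Adipoq (134) and all 5 genes (80).

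The members were mostly shallow and held few rule-gene UMIs. Their median depth was 3815 UMIs (474 to 67017), and the rule genes gave a median of 16 UMIs (3 to 803) or 0.437% of a barcode's UMIs. The rule genes reached 1% of UMIs in 115 members, of which 43 held endothelial markers, and 5% in 6, of which none did. The highest share in any member was 7.98%.

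By markers of other cell types the members fell into 3 kinds. The 410 endothelial members (300 in normal diet WT, 94 in normal diet DTR, 16 in high fat WT and 0 in high fat DTR) had a median of 4081 UMIs, 2.84% mitochondrial UMIs, 2.60% of UMIs from the nuclear RNA Malat1 and 0.355% from the rule genes. Endothelial barcodes with 0 rule genes were shallower, with a median of 3438 UMIs, and held medians of 2.69% mitochondrial and 2.46% Malat1 UMIs. The vascular endothelial markers summed to 3715, 3959 and 4619 CPM in the endothelial members of normal diet WT, normal diet DTR and high fat WT, beside 4022, 4551 and 4392 CPM in those with 0 rule genes. Both groups were selected on these same markers. The T and NK markers summed to at most 25 UMIs and the macrophage markers to at most 15 in the endothelial members of any library.

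The 33 fibroblast members (11, 13, 1 and 8 in the order of libraries above) held at least 3 fibroblast markers and no endothelial call. They were deep, with a median of 18343 UMIs beside 11528.5 in fibroblast barcodes with 0 rule genes, and held 4.88% mitochondrial and 0.976% Malat1 UMIs beside 3.1% and 2.00%. The fibroblast and progenitor markers summed to 2628 CPM in the fibroblast members of normal diet WT, 3263 CPM in normal diet DTR and 6077 CPM in high fat DTR. In fibroblast barcodes with 0 rule genes the same fibroblast and progenitor sum was 7461, 12590 and 21624 CPM, higher in each of the 3 libraries. Vascular endothelial markers were near 0 in these members, at 11, 6 and 16 UMIs.

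The 87 unclassed members (64, 17, 5 and 1) held no stromal marker list and were the shallowest of the 3 kinds. In normal diet WT their medians were 1048.5 UMIs, 619 genes, 5.54% mitochondrial UMIs, 0.124% Malat1 and 2.11% rule-gene UMIs. In normal diet DTR the medians were 1274 UMIs, 678 genes, 5.58%, 0.121% and 1.83%, so both libraries gave the same profile of few UMIs, little nuclear RNA and a high share of rule genes. The low depth was not particular to members. All barcodes without Ptprc that held no stromal marker list had medians of 1144 UMIs in normal diet WT and 1707 in normal diet DTR. Together the rule genes reached 22170 CPM in the unclassed members of normal diet WT and 22043 CPM in normal diet DTR, against 4406 and 4949 CPM in the endothelial members. The vascular endothelial markers stood at 1109 and 845 CPM there. The other 3 members held only pericyte or mesothelial markers.

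**Figure D3:**
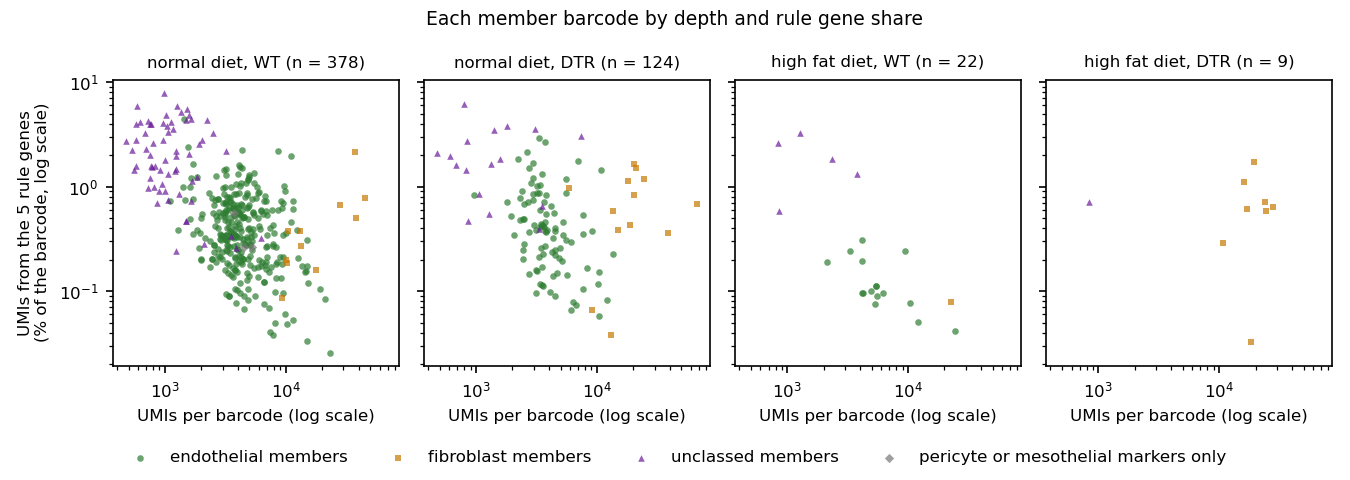
Each of the 533 members as a point, with its UMIs (log axis) against the percent of its UMIs from the 5 rule genes (log axis), 1 panel per library and 1 colour per kind. Unclassed members lie at few UMIs and a high share, fibroblast members at many UMIs, and endothelial members between them at about 0.355% of UMIs.

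Endothelial and fibroblast members also carried different sets of adipocyte messages. Set against 100 UMIs of Car3, Cfd gave 87.4 UMIs (83.8 to 91.2) in endothelial members of normal diet WT and 109 (101 to 117) in normal diet DTR. In fibroblast members Cfd gave 3.35 (2.49 to 4.41), 1.22 and 0 per 100 Car3 UMIs in normal diet WT, normal diet DTR and high fat DTR, the last from 0 of 911 Car3 UMIs. Unclassed members were near the endothelial ones, with 74.0 and 85.4 for Cfd in the normal diet libraries. The 27 Cfd UMIs beside 83 Car3 UMIs in T and NK barcodes of normal diet WT gave 32.5.

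The same split ran through other adipocyte genes. Cidec gave 12.7 and 16.0 UMIs per 100 Car3 UMIs in endothelial members of normal diet WT and DTR and 10.9 and 15.2 in unclassed members, but 0.580, 0.640 and 1.21 in the 3 fibroblast groups. Thrsp, a regulator of lipid synthesis, gave 16.6 and 10.6, then 16.1 and 6.55, then 0.451, 0.0582 and 0. Retn gave 20.7 and 26.8, then 18.2 and 19.7, then 2.51, 6.11 and 5.49. The fibroblast members stood below on each of these genes. The glyceroneogenic enzyme gene Pck1 gave 1.75 and 3.32 in endothelial members and 0 in all 3 fibroblast groups. Other genes ran the opposite way. Plin1 gave 2.35 and 2.79 in endothelial members of the normal diet libraries and 6.12, 11.4 and 11.6 in fibroblast members. G0s2, which encodes an inhibitor of the lipase ATGL, gave 1.09 and 1.96 beside 7.53, 9.20 and 16.9. Adipoq had overlapping ranges, with 7.36 and 9.14 beside 2.12, 9.90 and 7.57. Dgat2, for the last step of triglyceride synthesis, and Rbp4, for retinol binding protein 4, gave 2.52 to 5.41 and 3.16 to 4.42 in these 7 groups. High fat WT did not follow the normal diet libraries on all of these genes, although its 16 endothelial and 5 unclassed members held only 55 and 75 Car3 UMIs. There Plin1 gave 10.9 (3.84 to 25.3) in endothelial members, within the range of the fibroblast groups, and 4.00 (0.807 to 12.1) in unclassed ones. Cfd gave 32.7 (18.1 to 56.6) and 108 (77.9 to 150), Cidec 47.3 and 57.3, and Dgat2 7.27 and 18.7. Cidec, Retn, Plin1, Adipoq and Car3 are rule genes, so the rule itself acted on their ratios. Endothelial barcodes of normal diet WT with 1 or 2 rule genes gave 6.96, 12.9, 0.733 and 2.26 for Cidec, Retn, Plin1 and Adipoq. The part of the rule in the differences between kinds was not tested. The ratio thus differed between the kinds and libraries gene by gene, and the fibroblast groups rest on 8 to 13 barcodes, 1 of which held 747 of the 1553 Car3 UMIs of normal diet WT.

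**Figure D4:**
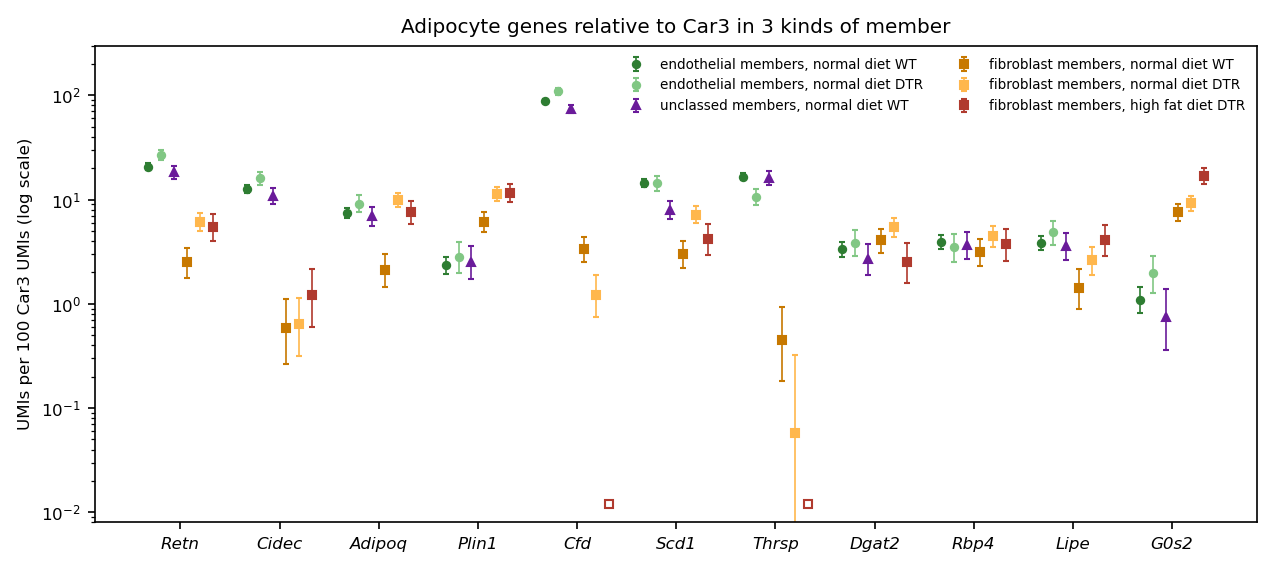
UMIs of 11 adipocyte genes per 100 Car3 UMIs (log axis) in endothelial and fibroblast members of the normal diet libraries, unclassed members of normal diet WT and fibroblast members of high fat DTR. Bars are 95% counting intervals and open squares at the bottom mark 0 UMIs. For Cfd, Cidec, Thrsp and Retn the fibroblast members lie below the other 2 kinds (Cfd 3.35 beside 87.4 in normal diet WT), and for Plin1 and G0s2 above them. Retn, Cidec, Adipoq, Plin1 and Car3 are rule genes, so the rule also acted on their ratios.

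Endothelial members were set beside endothelial barcodes of the same library with 0 rule genes, to describe what else they carried. The groups were 300 and 144 barcodes in normal diet WT and 94 and 152 in normal diet DTR. This is the contrast the rule used, so the values are a description only. Genes with at least 50 UMIs over both sides numbered 5304 and 3111, of which 2.75% and 2.44% stood at least 2-fold higher in the members and 2.62% and 2.64% at least 2-fold lower. The median over these genes was -0.01 on the log2 scale in both libraries.

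Among lipid synthesis genes, 9 of 12 measured stood at least 2-fold higher in normal diet WT (list median 2.70 on the log2 scale) and 4 of 7 in normal diet DTR (2.09). Fasn stood at 17.2 CPM without rule genes and 261 CPM in members of normal diet WT, and at 13.2 and 162 CPM in normal diet DTR, log2 ratios of 3.93 and 3.61. Scd1, which makes monounsaturated fatty acids, differed by 3.1 and 3.6, and Dgat2 by 5.91 and 4.44. Pck1 had 0 UMIs in the 144 barcodes and 82 in the 300, at least 10.4-fold higher when 3 UMIs are set as the floor of the group. Acly, which makes cytosolic acetyl-CoA, was inside 2-fold at 0.67 and 0.44.

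Storage, lipolysis and uptake genes differed gene by gene. Plin4, another droplet coat gene of adipocytes, had 0 and 91 UMIs in normal diet WT (at least 11.6-fold higher) and a log2 ratio of 5.16 in normal diet DTR. Plin2, the droplet coat gene of most cell types, differed by 0.39 and 0.27. Of 6 lipolysis genes measured in each library 2 stood at least 2-fold higher, with Lipe, the hormone-sensitive lipase gene, at 2.02 and 1.55. Among uptake genes 0 of 11 did in normal diet WT and 1 of 8 in normal diet DTR: the fatty acid carrier genes Cd36 and Fabp4 differed by 0.13 and 0.26 in the first and by 0.11 and 0.38 in the second. Pparg, the adipogenic transcription factor that capillaries share, differed by 0.13 and 0.73.

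Secreted and mitochondrial genes stood higher in part. Of 10 adipokine genes measured in normal diet WT 5 stood at least 2-fold higher and 1, Itih5, lower, with Cfd at 4.35 (4.02 to 4.69) and Rbp4 at 6.14. In normal diet DTR 1 of 7 did, Cfd at 5.85 (5.34 to 6.40). Pcx, pyruvate carboxylase, differed by 2.88 in normal diet WT, and Echs1, a beta-oxidation enzyme, by 1.25 and 2.15. Ifi27l2a, an interferon-inducible gene, stood at 58.4 CPM without rule genes and 969 CPM with them in normal diet WT, and at 121 and 1816 CPM in normal diet DTR. Other interferon genes did not follow it: of 9 measured in normal diet WT only Ifit1 was also past 2-fold (1.28). In normal diet DTR Ifit3 (-1.76), Rsad2 (-1.15) and Ifi44 (-1.02) stood lower in members, as did Cxcl10 (-1.71). When every barcode counted equally, all of these were inside 2-fold. Ifit1 was then at 0.99 in normal diet WT. In normal diet DTR Ifit3 was at -0.87, Rsad2 at -0.57, Ifi44 at -0.77 and Cxcl10 at -0.67. Bnip3, a mitophagy receptor induced by hypoxia, differed by 2.24 and 2.43, and Hp, haptoglobin, by 2.15 and 2.71, although 42.1% and 62.3% of the Hp UMIs in barcodes without rule genes came from 1 barcode. Without barcodes that held markers of another cell type Hp differed by 3.82 and 5.40. None of the brown or beige adipocyte genes reached 50 UMIs.

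The endothelial subtype genes were within 2-fold or lower in the members. None of the 10 capillary genes in either library and none of the 5 endothelial markers differed 2-fold, with capillary medians of 0.12 and 0.17. Venous Selp, P-selectin, stood 1.66 and 1.80 lower on the log2 scale (ratios -1.66 and -1.80), and Plvap, of fenestrated and venous endothelium, had ratios of -1.57 and -1.41. Fbln5, an elastic fibre gene of arterial endothelium, had ratios of -1.85 and -1.23. Venous Lrg1 (-0.10 and 0.47) and arterial Sox17 (0.53 and -0.07) were within 2-fold. These calls ended in normal diet DTR when members needed only 2 rule genes, with Selp at -0.66, Plvap at -0.65 and Fbln5 at -0.84. Fibroblast RNA moved with the rule too: collagen and matrix genes stood at least 2-fold lower in members for 6 of 11 measured in normal diet WT and 4 of 11 in normal diet DTR, and 58.5% of the Dcn UMIs in normal diet WT barcodes without rule genes came from 1 barcode. Without barcodes that held markers of another cell type the lower genes numbered 44 in place of 139 and 48 in place of 82, and Dcn was at -0.25.

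Split the other way, by whether an endothelial barcode held a UMI of a venous or arterial gene, the share that met the rule differed by gene and library. It was lower with a UMI in both normal diet libraries for Plvap (24.8% with and 34.4% without in normal diet WT, 14.3% and 24.6% in normal diet DTR), for Fbln5 (24.2% and 34.4%, 14.9% and 24.7%), for Vwf (18.8% and 33.8%, 16.0% and 23.4%) and for Sema3g (30.5% and 33.7%, 17.4% and 24.3%). Lrg1, a venous and inflammation-induced gene, ran the opposite way in both, with 53.4% and 29.5%, then 30.4% and 16.2%. Sox17 did so in normal diet WT (36.9% and 28.4%) and hardly differed in normal diet DTR (22.9% and 22.0%). Selp (30.2% and 33.2%, then 36.0% and 21.6%) and Hey1 (27.9% and 33.5%, then 31.0% and 21.9%) changed direction between the libraries. Of these genes, only Lrg1 had counting intervals that stayed apart in both normal diet libraries. In normal diet WT they were 44.5 to 62.1 with a UMI and 26.4 to 32.9 without. In normal diet DTR they were 23.9 to 37.6 and 11.8 to 21.6. The intervals of the other genes overlapped in both libraries. In high fat WT, with 16 members, Plvap (5.71% and 2.57%), Vwf (6.90% and 3.01%) and Fbln5 (3.87% and 2.95%) were higher with a UMI. Sema3g (2.67% and 3.49%) was lower there, and the intervals of each of these genes overlapped. The barcodes with a UMI were the deeper ones for all 8 genes in these 3 libraries, and the genes were chosen after their values were seen.

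Diet was compared in all endothelial barcodes labelled WT, 908 on the normal and 494 on the high fat diet, since only 22 and 9 members came from the high fat libraries. Of 8425 genes, 1.07% stood at least 2-fold higher (90) on the high fat diet and 3.05% lower (257), with a median of -0.01 on the log2 scale. Without Scrublet doublets 55 stood higher. The 5 rule genes together stood lower by a log2 ratio of -3.66 (-3.80 to -3.51). Car3 stood at 1573 CPM on the normal and 98.3 CPM on the high fat diet, a log2 ratio of -4.0 (-4.20 to -3.81). Retn had 1182 and 44 UMIs (-3.96), Adipoq 382 and 33 (-2.75), Plin1 122 and 12 (-2.56) and Cidec 709 and 83 (-2.31). All 5 were thus at least 2-fold lower, and the size of the difference ran from Cidec to Car3. These sums do not separate fewer barcodes with the transcripts from fewer transcripts per barcode. The share of endothelial barcodes with at least 1 rule gene was 84.1% on the normal and 32.8% on the high fat diet. Endothelial members held 4688 Car3 UMIs in 300 barcodes and 55 in 16. The share and the Car3 UMIs per member were thus both lower, and how much each gave to the sums was not tested.

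Other adipocyte messages differed in the same direction. Cfd had 5265 UMIs in 682 barcodes on the normal diet and 70 UMIs in 37 barcodes on the high fat diet, a log2 ratio of -5.45 (-5.81 to -5.11). Lipid synthesis genes stood at least 2-fold lower for 10 of 17 measured, with a list median of -1.27: Pck1 at -3.33, Fasn at -3.06, Scd1 at -2.51 and Dgat2 at -2.18, while Acly was at -0.10 and Srebf1, the regulator of this programme, at 0.53. Adipokine genes stood lower for 4 of 13, with Rbp4 at -2.76 and Apoc1 at -2.93. Lep, the leptin gene, had 39 and 20 UMIs, a ratio of -0.18 whose interval spanned 0 (-1.03 to 0.64). Of 7 lipolysis genes 2 stood lower: Adrb3, the beta-3 adrenergic receptor gene, with 50 and 3 UMIs (-3.27), and Lipe (-1.28, or -0.87 when every barcode counted equally).

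Several genes that endothelium itself uses were within 2-fold. Fabp4 stood at 45227 and 45137 CPM (-0.00), Cd36 differed by 0.14, Lpl by -0.35 and Pparg by 0.18. Of the 10 capillary genes 1, Timp4, stood lower (-1.22), and the list median was 0.09. Of 6 venous genes measured Selp stood lower (-1.12, or -0.83 when every barcode counted equally). RNA of other cell types moved with diet in these barcodes. Fibroblast and progenitor markers stood at least 2-fold higher for 4 of 5 (list median 1.49), with summed levels of 302 and 808 CPM. Pericyte and smooth muscle markers stood lower for 4 of 5 (list median -1.73), with summed levels of 574 and 209 CPM. Without barcodes holding markers of another cell type the 5 rule genes together had a log2 ratio of -3.56. Ifi27l2a had a ratio of -2.42 and Hp of -1.71, the same genes that stood higher in members than in barcodes without rule genes. Of the genes at least 2-fold higher on the high fat diet, the largest ratios rested on 1 barcode, which held 100% of the Nts UMIs and 90.3% of those of Apod.

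The labelled genotypes were compared within the normal diet, where both libraries had at least 50 members. Over all members, 378 labelled WT and 124 labelled DTR, 6180 genes were compared, of which 4.95% (306) stood at least 2-fold higher in DTR and 2.78% (172) lower. With TMM scaling these counts were 240 and 233, so the part of the calls that stood higher went from 64.0% to 50.7%. Fibroblast members made up 13 of 124 in DTR and 11 of 378 in WT, and the fibroblast and progenitor markers summed to 1636 and 409 CPM. All 5 fibroblast markers stood at least 2-fold higher in DTR, and the comparison was repeated in endothelial members only. Those leave out the unclassed members as well (64 in WT and 17 in DTR) and still include barcodes that hold fibroblast markers. The part of fibroblast RNA alone in the other differences was therefore not measured.

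In all members Plin1 was the only rule gene past 2-fold, at 130 and 334 CPM (log2 ratio 1.37, 1.10 to 1.63), with 27.0% of the DTR UMIs in 1 barcode. The acute phase genes ran highest: Saa3 had 52 and 460 UMIs (4.49), with 72.6% of the latter in 1 barcode, Lcn2 had 17 and 131 (4.29; 48.9%) and Hp stood at 607 and 3672 CPM (2.60; 38.2%). C4b, a complement gene, was spread more evenly, with 25 UMIs in 22 barcodes and 87 in 31 (3.14; 13.8%). Droplet genes stood higher for 4 of 7, with G0s2 at 1.52 and Plin4 at 1.13. Lipid synthesis genes stood higher for 1 and lower for 3 of 16, with Thrsp at -1.20 and Fasn at -1.06. When every barcode counted equally, Plin1 was at 0.29, G0s2 at 0.90, Plin4 at 0.84, Thrsp at -0.78 and Fasn at -0.98, all inside 2-fold, while Saa3 was at 1.03, Lcn2 at 2.31 and Hp at 1.69. Hemoglobin and immunoglobulin RNA stood lower in DTR: Hbb-bs had 15187 and 15 UMIs, and 19 of 378 members labelled WT but 1 of 124 labelled DTR held red blood cell markers.

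In endothelial members alone, 300 labelled WT and 94 labelled DTR, 1.94% (98) of 5051 genes stood at least 2-fold higher in DTR and 2.28% (115) lower, or 68 and 160 with TMM scaling (46.0% and 29.8% of calls higher). The rule genes themselves were inside 2-fold, though the rule had also set a floor for them. Car3 stood at 3079 and 3198 CPM (0.05, -0.03 to 0.14), Retn at 638 and 857 (0.43), Cidec at 391 and 512 (0.39), Adipoq at 227 and 292 (0.37) and Plin1 at 72.2 and 89.4 (0.31). The 2-fold Plin1 difference over all members was thus not seen in the endothelial ones. Cfd stood at 2692 and 3483 CPM (0.37).

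Inflammatory genes stood at least 2-fold higher in DTR endothelial members for 4 of 6 measured, with a list median of 1.43. Hp had 442 UMIs in 155 barcodes labelled WT and 543 in 67 labelled DTR, 290 and 1311 CPM, a log2 ratio of 2.18 (1.99 to 2.36) with 11.4% of the DTR UMIs in 1 barcode. Lrg1 stood at 112 and 749 CPM (2.74, 2.46 to 3.02), detected in 71 and 56 barcodes with 21.6% in 1. Il6 stood at 44.7 and 145 CPM (1.70), with 45.0% in 1 barcode. Ccl7 (3.74; 51.2%), Tnfaip6 (3.04; 74.5%), Ptx3 (2.63; 73.8%) and Col1a1 (3.53; 88.3%) rested mainly on 1 barcode. Ccl2 was inside 2-fold at 0.35 and Cxcl10 at -0.51. Cxcl1 stood at 161 and 360 CPM (1.16). Without Scrublet doublets Il6 was at 0.88 and Cxcl1 at 0.79, both inside 2-fold, and Cxcl1 was at 0.62 without barcodes of other cell types. Fibroblast markers moved with these genes, 3 of 3 measured standing higher (list median 2.37), and 67.9% to 88.3% of the DTR UMIs of each came from 1 barcode. Red blood cell genes stood lower for 4 of 4 measured (list median -7.58). The part of either in the inflammatory genes was not tested. Droplet genes stood higher for 2 of 6, Plin4 at 59.8 and 135 CPM (1.18) and Hilpda, a hypoxia-induced inhibitor of lipolysis, at 280 and 606 CPM (1.11). Both lay close to the 2-fold line, Plin4 at 0.92 with at most 5% mitochondrial UMIs and Hilpda at 0.95 when every barcode counted equally.

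Lower in DTR were the MHC class II genes, 4 of 4 measured, with a list median of -2.13. Cd74, the invariant chain, had 313 and 17 UMIs (-2.32) and H2-Aa 124 and 5 (-2.75), and 25.9% and 28.2% of the UMIs labelled WT came from 1 barcode. Without barcodes that held markers of another cell type Cd74 was at -0.81, inside 2-fold, and H2-Aa at -1.82. Timp4, an inhibitor of metalloproteases found in capillaries, had 1034 and 104 UMIs (-1.43). Lipid synthesis genes stood higher for 1 and lower for 2 of 14, with Me1 at -1.33, Acaca at -1.10 (-0.97 when every barcode counted equally) and Fasn at -0.69, so Fasn was inside 2-fold here. The lowest ratios were again blood-cell RNA, with Hbb-bs at 12469 and 15 UMIs and Igkc at 9054 and 15, of which 96.0% of the former group's Igkc lay in 1 barcode. With at least 2 rule genes in place of 3 the Hbb-bs ratio was -1.87, and without barcodes of other cell types the Igkc ratio was -2.04. The part of this RNA in the other differences was not tested.

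**Figure D5:**
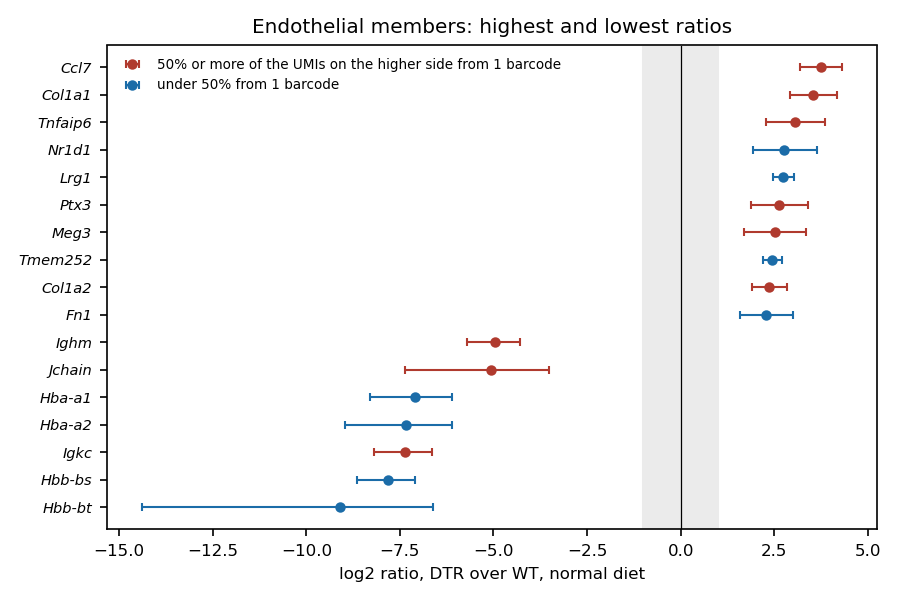
Log2 ratio of DTR over WT (as labelled, normal diet) in endothelial members for the genes with the highest and the lowest finite ratios, with 95% counting intervals and the range within 2-fold in grey; red marks genes with at least 50% of the UMIs of the higher side in 1 barcode. Lrg1 (2.74) and Tmem252 (2.45) are not red, while Col1a1 (3.53) and Ccl7 (3.74) are, and the lowest genes code for hemoglobin or immunoglobulin.

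Several of these differences were also present in endothelial barcodes with 0 rule genes, 144 labelled WT and 152 labelled DTR, where 2.21% of 3490 genes stood at least 2-fold higher in DTR and 1.75% lower. Lrg1 had a log2 ratio of 2.17 there, Timp4 of -2.18 and Hp of 1.62, the last with 62.3% of the DTR UMIs in 1 barcode. MHC class II genes stood lower for 3 of 3, with a list median of -1.28. These genotype differences were thus measured in endothelial barcodes with 0 rule genes too. Those barcodes still held other adipocyte messages, such as Cfd at 132 CPM in normal diet WT. The interferon list differed instead, with 5 of 9 genes at least 2-fold higher in barcodes without rule genes (list median 1.05) and 0 of 9 in the members (0.62). The difference between these 2 ratios was not tested. The comparison in barcodes with 0 rule genes was not repeated with every barcode counted equally.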

How the data were processed

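UMI counts per gene and barcode (10x Genomics 3′ v3 kit) were deposited by the authors as 1 matrix of 31053 genes and 22703 barcodes, raw whole-number counts per the file headers. Cell Ranger 3.1.0 and mm10 are named in the submitters' processing notes, and other upstream settings are not stated there. Barcodes were assigned to the 4 libraries by suffix, in the order of the deposited aggregation list, and 32 sample records are 8 runs of each library. A barcode was kept when it held 300 or more genes and no more than 10% mitochondrial UMIs, and no doublets were removed. A barcode was called for a cell type at 3 or more of 5 markers. Counts were summed per library and barcode set and scaled to a total of 1e6 (CPM).

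Log2 ratios have conditional exact binomial intervals, shares have Clopper-Pearson intervals, and levels have exact Poisson intervals, all at 95%. Genes needed 50 UMIs over both sides, sides needed 50 barcodes, and 2-fold was the size called. A side with 0 UMIs was set to 3 for a bound. The genes named are the rule genes, up to 4 per list by size of ratio and by UMIs, and the 10 highest and lowest ratios per comparison whose interval excludes 2-fold, with further list members for contrast. The members and lists were chosen with earlier results of these data known. Ratios were tested on simulated data. Alternatives changed 1 filter, the rule, the UMI minimum, the scaling (TMM, edgeR 4.0.16), doublet removal (Scrublet, expected 5.4%) or thinning at a time. Those that left out barcodes of other cell types, run for every gene comparison with alternatives, were chosen after seeing the data. Python 3.11.15 with numpy 2.4.6, scipy 1.17.1, pandas 2.3.3 and scanpy 1.11.5 was used.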

Additional observations from a re-analysis of the deposited data

Results flagged for a closer look

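Adipocyte transcripts were also found in barcodes outside the set. Of barcodes without Ptprc that the filters removed, 87 of 496 (17.5%, 14.3 to 21.2) in the library labelled normal diet WT and 31 of 297 (10.4%, 7.20 to 14.5) in normal diet DTR held at least 3 rule genes. Almost all of them, 86 and 30, were removed for more than 10% mitochondrial UMIs, and their median depths were 969 and 857 UMIs. Endothelial markers were called in 12 and 6 of them. In the high fat libraries the counts were 7 of 1247 (0.561%) for WT and 0 of 521 for DTR, with an upper limit of 0.706%.

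Among kept barcodes with Ptprc, 31 of 2467 (1.26%, 0.855 to 1.78) in normal diet WT and 14 of 1847 (0.758%, 0.415 to 1.27) in normal diet DTR held at least 3 rule genes. They were deeper, with medians of 7287 and 8260 UMIs, and 22 and 9 of them held endothelial markers. In high fat WT the count was 3 of 2598 (0.115%) and in high fat DTR 0 of 2379, with an upper limit of 0.155%.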

How the results depend on the processing

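With 1 library per group, nothing here has a replicate check, and the high fat libraries hold too few members (22 and 9, under 50 barcodes), so diet and high fat genotype ratios within the members were not run. No paired analysis was possible because each group is 1 library. In the order normal diet WT, normal diet DTR, high fat WT, high fat DTR, the share of adipocyte-transcript barcodes was 7.44%, 3.55%, 0.270% and 0.120% with at least 4 of 5 rule genes, 24.8%, 12.1%, 2.70% and 0.661% with at least 2, and 8.21%, 4.45%, 0.218% and 0.101% thinned to 2000 UMIs. The share of them with endothelial markers in normal diet WT was 83.3% with at least 500 genes or with 2 endothelial markers, 87.4% at 5% mitochondrial UMIs, 74.5% and 83.9% with 4 and 2 rule genes and 72.8% with 4 markers. In normal diet DTR it was 90.1% at 5% mitochondrial UMIs and 66.1% with 4 markers, and in high fat WT 40.0% after thinning. With a minimum of 20 UMIs the higher and lower counts were 637 and 421 (DTR against WT, members), 326 and 369 (endothelial members), 381 and 361 (members beside 0 rule genes, normal diet WT), 270 and 268 (normal diet DTR) and 224 and 484 (diet), since more genes were counted. Higher genes in DTR members were 554 with at least 2 rule genes and 98 in endothelial members. Without barcodes of other cell types they were 74, with 96 lower, and 61 in endothelial members, and the lower genes of the members beside 0 rule genes were 44 and 48. Without Scrublet doublets 55 genes stood higher on the high fat diet. In all, 133 such values kept within 1.5 times or their interval and 39 did not. Of 2631 values of single genes, 2308 kept their value within the interval, 316 moved and 7 changed sign: in the DTR against WT ratio Cpt2 (-0.074 in members when every barcode had the same total), Col1a2 (-0.49) and Col3a1 (-0.17) without Scrublet doublets, and Mmp2 in the diet ratio (-0.015) likewise. In members beside 0 rule genes they were Cxcl1 in normal diet WT (0.81 without barcodes of other types) and Ccl2 in normal diet DTR (1.03 without Scrublet doublets, 1.32 without other types). The cause was not tested.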
